A study of Mus musculus with 24 samples.

Results

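The protein-protected sites (PPSs) of MEL cells at day 2 of erythroid differentiation were separated here by the RNase that revealed them. MEL cells are a murine erythroleukemia line that differentiates along the red cell lineage when DMSO is added, and the day 2 cells had grown for 2 days with 2% DMSO. Protein interaction profile sequencing (PIP-seq) sets footprint libraries, in which proteins stayed on the RNA during digestion, against structure-only libraries, in which proteins were removed before it. All 8 day 2 libraries came from formaldehyde-crosslinked cells, and each replicate culture was divided by protein treatment and by RNase. They gave 4 call sets (ssRNase replicates 1 and 2, dsRNase replicates 1 and 2), each called from 1 footprint and 1 structure-only library. Each deposited PPS lists the calls merged into it, and PPSs were grouped by whether those calls were made with ssRNase only, with dsRNase only, or with both. PPSs of 20 to 40 nt, the size of ribosome footprints, were left out, which removed 50088 of the 169575 day 2 PPSs. The removal was unequal: of single-call PPSs it took 49.2% and 25.5% of ssRNase replicates 1 and 2 and 40.6% and 51.9% of dsRNase replicates 1 and 2. Of the 119487 PPSs kept, out of 460777 in the 3 lists of the series, 79089 (66.2%) had ssRNase calls only, 20243 (16.9%) had dsRNase calls only and 20155 (16.9%) had calls of both nucleases.

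The nucleases read opposite states of RNA. RNaseONE, the ssRNase, cuts unpaired RNA, whereas RNase V1, the dsRNase, cuts base-paired or stacked RNA. A PPS is called where RNA covered by protein survives a digestion that removes the same RNA once it is stripped of protein, so each nuclease can reveal a bound site only where it would cut the bare strand. Introns, coding sequence (CDS) and untranslated regions (UTRs) meet different proteins during the life of an mRNA: splicing factors and hnRNPs on unspliced nuclear RNA, ribosomes and translation factors on the CDS, and regulators of stability and localisation on the 3′ UTR. In lists pooled over many cells, fewer cells holding an RNA and less of that RNA per cell cannot be told apart.

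The highest-scoring PPSs of 41 to 80 nt called in both replicates of 1 nuclease and in neither replicate of the other are shown to give the kind of RNA at stake. Sites on 1 chromosome were left out of this choice and of the counts of such PPSs. Coordinates are mm10, all sequences read 5′ to 3′ on the strand of the PPS, and runs of 3 or more G are in capitals. With ssRNase, 2057 such PPSs lay wholly in CDS. The strongest were in Vps51, a subunit of vesicle-tethering complexes (chr19:6068855-6068908, minus strand, score 50.7), and in Nop56, a core protein of box C/D snoRNPs (chr2:130276511-130276589, plus strand, score 48.6):
Vps51: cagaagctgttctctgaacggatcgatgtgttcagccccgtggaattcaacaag
Nop56: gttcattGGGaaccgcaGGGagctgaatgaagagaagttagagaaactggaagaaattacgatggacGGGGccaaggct

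In introns, ssRNase gave 5796 PPSs of this kind. The strongest lay in Eif4g3, which encodes a translation initiation scaffold (chr4:138062955-138063013, plus strand, score 62.4), and in Gse1, which overlaps the annotated gene Gm20388 there (chr8:120491170-120491246, plus strand, score 52.3):
Eif4g3: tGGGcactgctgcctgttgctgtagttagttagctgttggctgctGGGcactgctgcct
Gse1: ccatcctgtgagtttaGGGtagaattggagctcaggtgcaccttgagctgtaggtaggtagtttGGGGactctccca

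With dsRNase, 817 such PPSs lay wholly in CDS. The strongest were in Sept8, a septin (chr11:53536652-53536700, plus strand, score 39.1), and in the predicted gene Gm20594 (chr6:79818297-79818353, plus strand, score 36.3). The Gm20594 sequence matched the mitochondrial genome at 91.2% of its positions over its full length, so its reads can be shared with mitochondrial RNA. The Sept8 site is intronic in another annotated transcript:
Sept8: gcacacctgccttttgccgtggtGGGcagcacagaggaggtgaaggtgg
Gm20594: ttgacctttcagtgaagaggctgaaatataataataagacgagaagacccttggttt

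Within introns, 122 PPSs of this kind were found with dsRNase, whose call sets are the smaller ones. The strongest lay in Arhgef4 (chr1:34753062-34753111, plus strand, score 29.6), and in Cwf19l1, which encodes a protein related to a yeast splicing factor (chr19:44113879-44113947, minus strand, score 24.3):
Arhgef4: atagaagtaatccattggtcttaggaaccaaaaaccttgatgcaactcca
Cwf19l1: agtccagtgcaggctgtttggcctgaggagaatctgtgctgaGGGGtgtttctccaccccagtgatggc

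The call sets differed in size and in their score steps, which touches every comparison below. ssRNase replicate 1 had calls in 51965 PPSs and replicate 2 in 73952, against 30485 for dsRNase replicate 1 and 14832 for dsRNase replicate 2. Among PPSs formed from a single call, 47.5% of those of dsRNase replicate 1 and 39.6% of those of ssRNase replicate 2 sat at the lowest deposited score of 5.4. No single-call PPS of ssRNase replicate 1 or dsRNase replicate 2 had that score, and their commonest scores were 5.57 and 6.81. Scores were therefore not compared between call sets. Merged scores served to rank the PPSs that are shown. Such a score adds calls of call sets with unlike steps and rises with the number of calls, so these ranks are approximate. This split crosses both nuclease and replicate, so where the nuclease difference is unlike in replicates 1 and 2, the score step and the replicate cannot be told apart. Read depth of the libraries is unknown from these lists. The ranges in brackets after a share (Wilson method) or after a difference of shares (Newcombe method) are 95% intervals that cover counting error only. With 2 pairs of call sets, an exact paired test cannot give a two-sided p below 0.5, so differences are set against the spread of the 2 replicates with no p.

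As a check of the cells, 8 of 9 erythroid marker genes (among them Hba-a1, Gata1, Klf1 and Tfrc) held PPSs at day 2, with 52 and 71 PPSs in the ssRNase call sets and 34 and 28 in those of dsRNase. Of 9 markers of other lineages, only Pf4, a platelet chemokine, held any, with 1 PPS in each dsRNase call set and none with ssRNase.

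Sites seen with dsRNase touched CDS and 3′ UTRs more often than sites seen with ssRNase, which touched introns more often. CDS was touched by 28.9% of the PPSs of ssRNase replicate 1 (28.5 to 29.3) and 27.1% of replicate 2 (26.8 to 27.5), and by 43.5% (42.9 to 44.0) and 52.9% (52.1 to 53.7) of those of dsRNase. The dsRNase values lay above both ssRNase values. The difference, ssRNase minus dsRNase, was −14.5 percentage points within replicate 1 (−15.2 to −13.9) and −25.7 within replicate 2 (−26.6 to −24.9), a mean of −20.1 ± 7.93 (SD, n = 2 pairs). It went the same way in both pairs and exceeded their spread. The excess of dsRNase was larger in replicate 2, the pair in which the dsRNase call set is the smallest.

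Introns of protein-coding genes showed the reverse. They were touched by 62.9% and 65.1% of ssRNase PPSs and by 45.1% and 36.6% of dsRNase PPSs in replicates 1 and 2, a difference of 17.8 points (17.1 to 18.5) and 28.5 points (27.6 to 29.3). The mean difference was 23.1 ± 7.54 points (SD, n = 2 pairs). PPSs that lay within introns and touched no annotated exon made up 45.1% and 47.4% of the ssRNase call sets against 27.4% and 17.6% of the dsRNase call sets. The purely intronic share was higher with ssRNase by 17.7 points in replicate 1 and 29.7 points in replicate 2.

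**Figure D1:**
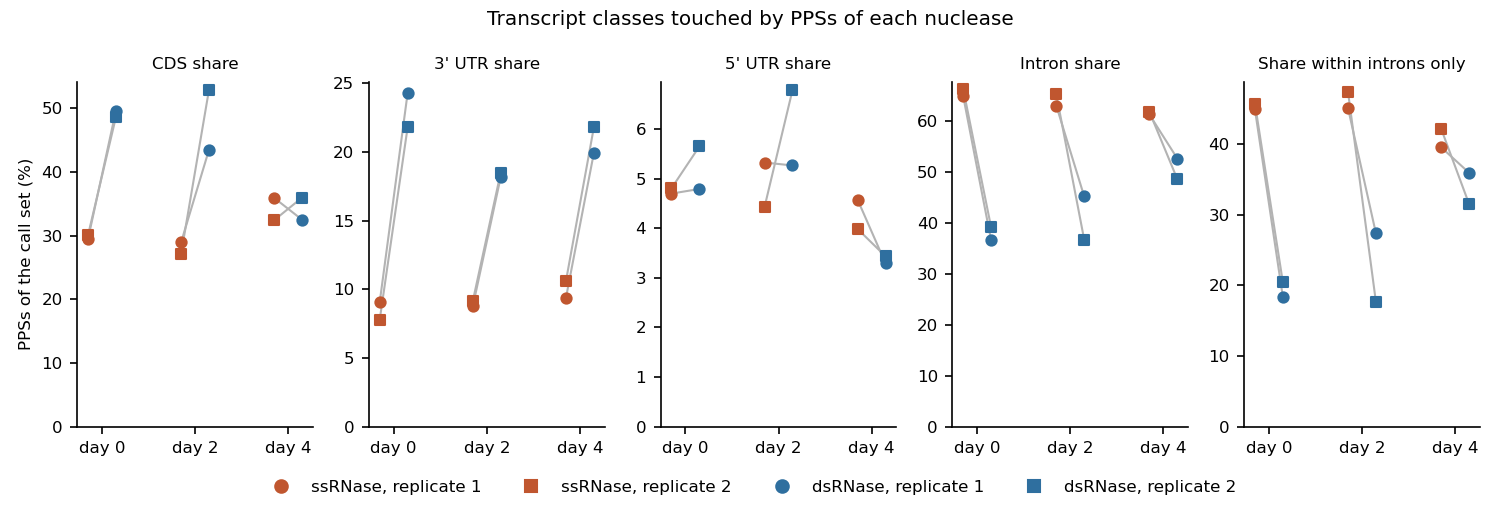
Each panel plots, on its own vertical axis in percent of the PPSs of a call set, the share that touches CDS, 3′ UTR, 5′ UTR or introns, or lies within introns only, at day 0, day 2 and day 4. Circles are replicate 1 and squares replicate 2, orange is ssRNase, blue is dsRNase, and grey lines join the 2 nucleases of 1 replicate. At day 2 both dsRNase points lie above both ssRNase points for CDS and 3′ UTR and below them for introns.

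The 3′ UTR difference was almost the same in both replicates. PPSs touching a 3′ UTR made up 8.77% of ssRNase replicate 1 and 9.14% of replicate 2, against 18.2% and 18.5% with dsRNase. The difference was −9.41 points (−9.91 to −8.92) within replicate 1 and −9.35 points (−10.0 to −8.70) within replicate 2, with a mean of −9.38 ± 0.04 (SD, n = 2 pairs). The 2 replicates' differences were closer to each other than the counting error of either.

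The remaining classes were small. The 5′ UTR share was 5.32% and 4.43% with ssRNase and 5.26% and 6.78% with dsRNase, and the difference was 0.06 points in replicate 1 (−0.26 to 0.37) and −2.35 points in replicate 2, which is no common direction. lncRNA exons took 1.41% and 1.24% of ssRNase PPSs and 1.22% and 1.44% of dsRNase PPSs, and their difference also changed sign between replicates. Intergenic PPSs made up 4.60% and 4.48% with ssRNase against 3.13% and 2.51% with dsRNase, and PPSs that lay only antisense to a gene 2.16% and 2.07% against 1.42% and 1.44%. Both classes were higher with ssRNase in each replicate. PPSs across an exon-intron boundary, which can come only from unspliced RNA or from a transcript with a retained or alternative exon end, made up 6.16% and 6.32% with ssRNase and 5.31% and 5.56% with dsRNase.

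Small RNA exons were touched by 0.69% and 0.39% of ssRNase PPSs and by 0.83% and 1.86% of dsRNase PPSs. Most of these were snoRNAs, the guides of rRNA modification that are processed out of introns: 266 and 204 PPSs with ssRNase, 207 and 229 with dsRNase. Small RNAs held few of the sites of either nuclease alone: 0.143% of the PPSs with ssRNase calls only, 0.123% of those with dsRNase calls only and 1.48% of those with calls of both.

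A further 312 PPSs (0.261%) carry nuclear coordinates but have a sequence found letter for letter in the mitochondrial genome, so their reads can come from mitochondrial transcripts. They made up 0.167% and 0.077% of ssRNase PPSs and 0.426% and 0.506% of dsRNase PPSs. The highest-scoring PPS with dsRNase calls only was one of them, a site of 292 nt in the predicted gene Gm10925 (1:24614520-24614811, minus strand) with 3 calls in replicate 1, 4 in replicate 2 and a score of 86.4. The highest-scoring PPS with ssRNase calls only, at a score of 160.8, spanned 609 nt of an intron of Rps6kc1, which encodes a kinase-related protein (1:190780271-190780879, minus strand). It held 8 calls of replicate 1 and 1 of replicate 2, and 36.8% of its bases were G. The highest-scoring PPS with calls of both nucleases spanned 1119 nt of an intron of Pfkp, the platelet-type phosphofructokinase (13:6606406-6607524, minus strand, score 244.3), with 9 and 5 ssRNase calls and 2 and 4 dsRNase calls. Of its bases, 98.5% were soft-masked as repeats.

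The same class comparison was made in the deposited lists of day 0 (before DMSO) and day 4. At day 0 the CDS share was 29.4% and 30.0% with ssRNase and 49.6% and 48.6% with dsRNase, and introns were touched by 64.8% and 66.2% against 36.5% and 39.1%. At day 4 the CDS share no longer separated the nucleases: it was 35.9% and 32.4% with ssRNase and 32.5% and 36.0% with dsRNase, and the difference changed sign between replicates. The 3′ UTR share remained higher with dsRNase at day 4, at 19.9% and 21.8% against 9.35% and 10.6%. The intron share remained higher with ssRNase, at 61.2% and 61.7% against 52.6% and 48.5%. Differences between days were not tested.

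The call sets overlapped more within ssRNase than within dsRNase. Of the PPSs with a call of ssRNase replicate 1, 51.3% (50.9 to 51.8) also held a call of ssRNase replicate 2, and of those of replicate 2, 36.1% held a call of replicate 1. For dsRNase the shares were 16.1% (15.7 to 16.6) of replicate 1 and 33.2% (32.4 to 33.9) of replicate 2. PPSs of dsRNase replicate 1 held an ssRNase call of replicate 2 (36.0%) or of replicate 1 (29.9%) more often than a dsRNase call of replicate 2. These shares move with the size of the second call set, which was smallest for dsRNase replicate 2. In all, 19461 PPSs were called in both ssRNase replicates and neither dsRNase replicate, 2346 in both dsRNase replicates and neither ssRNase replicate, and 1141 in all 4 call sets. Of the PPSs with calls of 1 nuclease, 75.4% (ssRNase) and 88.4% (dsRNase) rested on a single call.

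Lengths differed little between the nucleases. The median was 61 and 64 nt with ssRNase and 63 and 65 nt with dsRNase, a difference of −2 and −1 nt. Among single-call PPSs it was 50 and 57 nt against 52 and 50 nt, and the sign then differed between replicates. PPSs with dsRNase calls only had a median of 53 nt, those with ssRNase calls only 57 nt and those with calls of both 76 nt; the last were all merged from at least 2 calls. PPSs under 20 nt were rarer with ssRNase (1.76% and 1.19%) than with dsRNase (3.14% and 3.06%). PPSs over 100 nt made up 14.5% and 13.3% with ssRNase and 14.5% and 18.9% with dsRNase. At the edges of the length class left out, 435 PPSs were of 19 nt and 490 of 20 nt, and 3470 were of 40 nt and 3323 of 41 nt.

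Sites seen with ssRNase held more G and less A than sites seen with dsRNase. Mean G content was 29.7% and 28.7% with ssRNase against 27.1% and 28.3% with dsRNase, a difference of 2.53 points in replicate 1 and 0.42 in replicate 2. The mean difference of 1.47 ± 1.49 points (SD, n = 2 pairs) was no larger than the spread of the pairs. Mean A content was 26.2% and 26.9% with ssRNase against 28.8% and 28.2% with dsRNase, a difference of −2.69 and −1.37 points (mean −2.03 ± 0.93). The A content of both dsRNase call sets lay above that of both ssRNase call sets. The mean differences in C and T content did not exceed the spread of the pairs: the difference was 0.03 and −1.42 points for C and 0.13 and 2.37 points for T.

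Because introns, CDS and 3′ UTRs differ in base content, the comparison was repeated within each class. In PPSs wholly within CDS, G content was 31.5% and 30.8% with ssRNase against 28.0% and 29.2% with dsRNase (difference 3.49 and 1.52 points), and A content 26.4% and 27.1% against 29.6% and 29.2% (−3.14 and −2.09 points). Mean GC content was 53.6% and 52.6% with ssRNase and 49.3% and 50.7% with dsRNase, so both ssRNase means lay above both dsRNase means. The SD over the PPSs of a call set was 9.1 to 9.4 points, so single sites of the nucleases overlapped widely. In PPSs wholly within 3′ UTRs the gap was wider, with G at 29.5% and 28.3% against 24.4% and 25.4% and A at 25.04% and 26.01% against 29.2% and 28.6%. Within introns it was narrower: G was 28.7% and 27.7% against 27.0% and 27.6%, a difference of 1.73 and 0.10 points, and A was 26.7% and 27.4% against 28.9% and 28.2%. The G difference within CDS and 3′ UTRs exceeded the spread of the pairs, and that within introns did not.

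**Figure D2:**
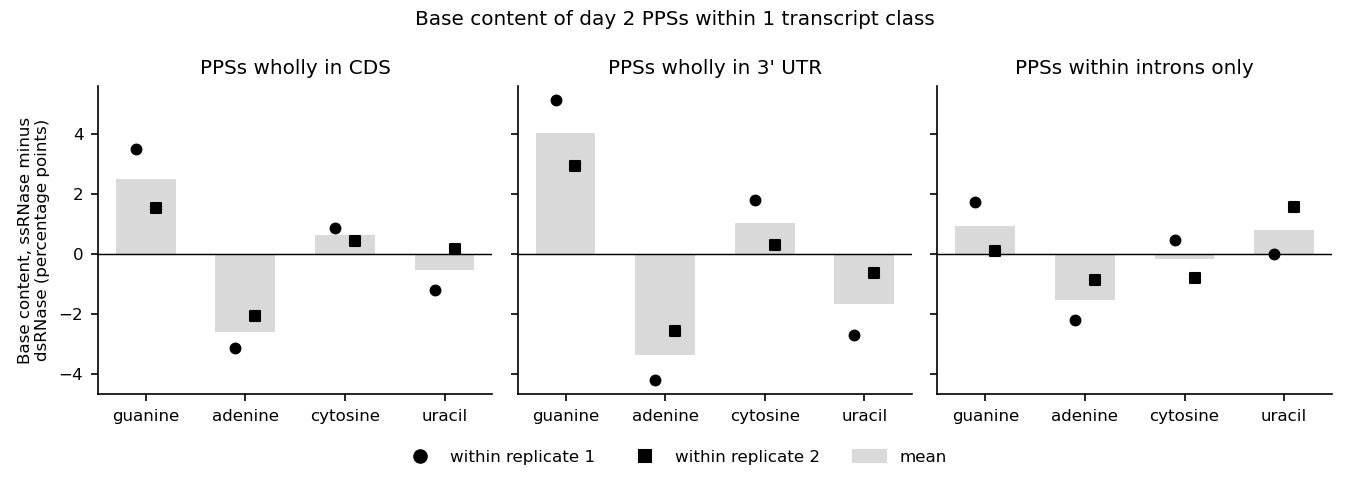
Differences in mean base content of day 2 PPSs, ssRNase minus dsRNase, in percentage points, for guanine, adenine, cytosine and uracil in PPSs wholly in CDS, wholly in 3′ UTR and within introns only. Circles are replicate 1, squares replicate 2 and bars their mean. Guanine lies above 0 and adenine below 0 in both replicates of all 3 classes, with the widest gaps in 3′ UTRs.

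The base difference was present within the same genes. In replicate 1, 3084 genes held PPSs wholly in CDS of both nucleases, and averaged per gene the ssRNase sites had 2.61 points more G and 1.70 points less A than the dsRNase sites of the same gene. In replicate 2 the values were 1.35 points more G and 1.71 points less A over 2453 genes. PPSs with a call of only 1 nuclease within the replicate, whatever their calls in the other replicate, were also compared. With these, the G excess was 3.79 points over 2233 genes in replicate 1 and 2.23 points over 1657 genes in replicate 2. G was higher with ssRNase in 70.9% and 64.0% of these genes. Genes are not replicates, so these shares are descriptions.

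Short words were counted as well. In CDS PPSs, 96 of the 256 words of 4 nt were more frequent with ssRNase in both replicates and 109 were more frequent with dsRNase in both. In intronic PPSs the counts were 61 and 59, so the larger part of the intronic words had no common direction in the replicates. In CDS PPSs the word farthest towards dsRNase was TAAT. Its log2 ratio of ssRNase over dsRNase frequency was −0.96 in replicate 1 and −0.57 in replicate 2. The next 4 CDS words in that direction were also made of A and T only. The CDS words farthest towards ssRNase were CCCC, with a mean log2 ratio of 0.55 over the replicates, and GCTG, with 0.48. In introns the farthest words of the same direction in both replicates were TATA (mean log2 ratio −0.36) and CCGC (0.34). The next intronic word towards dsRNase, ACAA, was not made of A and T only. A run of 3 G was present in 50.9% of the single-call PPSs of each ssRNase replicate and in 40.7% and 40.6% of those of dsRNase. In CDS it was present in 50% and 50.8% against 37.7% and 38.9%, and in introns in 48.9% and 49.3% against 44.99% and 44.9%. Lengths were not matched. The median of these single-call PPSs was 49 and 53 nt against 51 and 50 nt in CDS, and 50 and 58 nt against 52 and 49 nt in introns. Over all intronic PPSs, merged ones included, a run of 3 G was present in 55.5% and 53.7% with ssRNase against 54.1% and 55.5% with dsRNase, and the sign of the difference changed between replicates.

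The bases at the edges of the sites differed as well. Just before the first base of single-call PPSs, A was present at 30.6% and 29.7% of ssRNase sites and at 19.8% and 21.9% of dsRNase sites, and it made up 38.7% and 38.5% of first bases with ssRNase against 29.4% and 29.2% with dsRNase. The excess of A at the first base was 9.3 points in replicate 1 and 9.2 in replicate 2, although A was rarer inside ssRNase sites (25.8% and 27.0%) than inside dsRNase sites (29.8% and 29.4%). C was the first base of 19.6% and 20.6% of ssRNase sites and of 27.5% and 26.3% of dsRNase sites. G was rare just before the sites of both nucleases: 11.1% and 9.7% with ssRNase, 14.04% and 17.4% with dsRNase. The first-base difference was also seen within CDS (A at 37.9% and 36.8% against 30.5% and 29.2%) and within introns (40.02% and 40.1% against 29.5% and 34.1%).

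Predicted folding was compared in windows of 150 nt centred on PPSs of at most 150 nt, where a lower minimum free energy means a more stable predicted fold. The windows were cut from the genome and not from spliced mRNA, so windows around CDS or 3′ UTR sites can include intron sequence. In CDS the mean was −43.3 and −42.0 kcal/mol with ssRNase and −38.5 and −39.4 kcal/mol with dsRNase, a difference of −4.78 and −2.59. In 3′ UTRs it was −39.3 and −37.5 against −33.2 and −34.4 kcal/mol. In introns it was −37.0 and −36.0 against −35.2 and −36.7 kcal/mol, and the sign of the difference changed between replicates. The comparison was repeated within bins of GC content for CDS and intronic windows, but not for 3′ UTR windows. From 50% to 55% GC the CDS means were −42.3 and −42.1 kcal/mol with ssRNase and −41.1 and −41.2 with dsRNase, and the difference was below 0 in both replicates in all 6 GC bins of CDS windows, from −0.64 and −0.22 in the lowest bin to −2.47 and −1.82 in the highest. Both of these bins are open-ended, so GC content can still differ within them. The closed bins span a range too, and GC content was not matched inside them. The mean of the 2 ssRNase values in CDS was −36.5 kcal/mol from 45% to 50% GC and −42.2 from 50% to 55%. Around CDS sites, the genomic sequence near ssRNase sites thus had the more stable predicted fold in both replicates, also within these bins of GC content. Whether it would at equal GC content was not tested. Around 3′ UTR sites the direction was the same, without such bins. There the GC content of the PPSs was 48.4% and 46.6% with ssRNase against 41.5% and 43.4% with dsRNase. The prediction takes no account of proteins or of the cell.

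**Figure D3:**
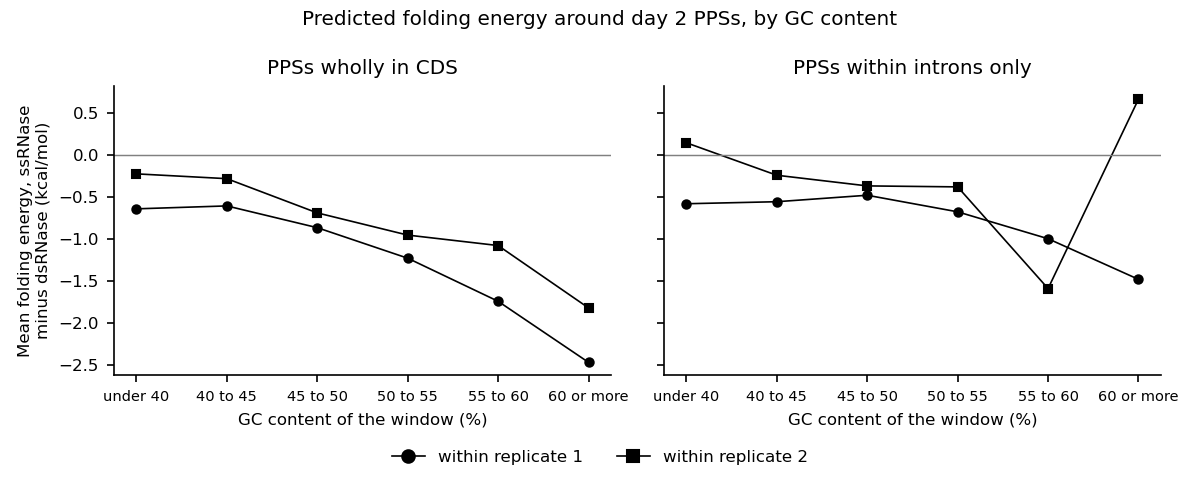
Difference in mean predicted folding energy (kcal/mol) of 150 nt genomic windows around day 2 PPSs, ssRNase minus dsRNase, by GC content of the window, for PPSs wholly in CDS and within introns only. Circles are replicate 1 and squares replicate 2. In CDS all 12 points lie below 0; in introns the lowest and the top bin of replicate 2 (0.15 and 0.67, the latter with 69 dsRNase windows) lie above 0.

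Repeat-masked sequence took a similar part of the sites of both nucleases, 6.07% and 6.18% with ssRNase and 5.65% and 5.14% with dsRNase. Intronic sites of both nucleases lay at like distances from exons: the median distance to the nearest annotated exon was 1664 and 1669 nt with ssRNase and 1608 and 1623 nt with dsRNase. Within 100 nt of an exon lay 6.87% (6.55 to 7.20) and 6.84% of ssRNase and 6.90% (6.37 to 7.46) and 7.19% (6.26 to 8.24) of dsRNase intronic PPSs, and these intervals overlap.

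Along mRNAs the nucleases differed on both sides of the CDS. Over the mRNAs of 8489 genes with an exonic PPS, 4.28% and 5.77% of positions lay in an ssRNase PPS and 4.08% and 2.42% in a dsRNase PPS, and window values are given relative to these averages. In the 100 nt before the start codon the relative density was 2.02 and 1.70 with ssRNase and 1.25 and 1.37 with dsRNase. Further upstream, 200 to 300 nt before it, the values were 1.75 and 1.45 against 0.933 and 1.11. In the first 100 nt of the CDS they were 2.16 and 1.92 against 1.68 and 2.21, with no common direction. In the last 100 nt of the CDS the order turned, at 1.25 and 1.19 with ssRNase and 1.61 and 1.87 with dsRNase. In the 100 nt after the stop codon the relative density was 0.815 and 0.814 with ssRNase and 1.12 and 1.10 with dsRNase. Density of ssRNase sites was therefore relatively higher upstream of the start codon and that of dsRNase sites higher around the stop codon, in both replicates.

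**Figure D4:**
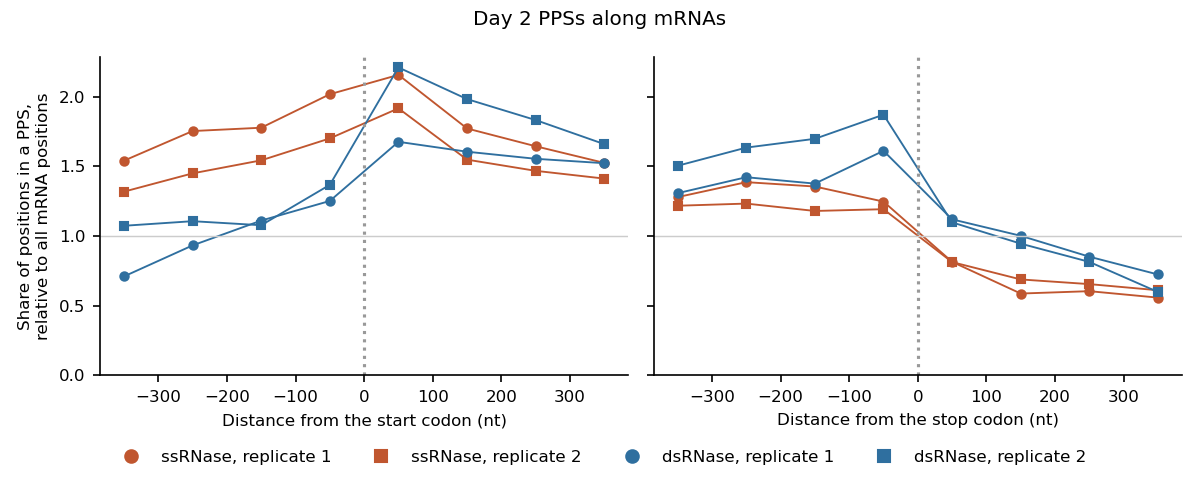
Share of mRNA positions in a day 2 PPS in windows of 100 nt, divided by the share over all mRNA positions of the call set, against the distance of the window centre from the start codon and the stop codon (nt). Orange is ssRNase, blue dsRNase, circles replicate 1 and squares replicate 2. Both orange lines lie above both blue lines before the start codon, and both blue lines lie above both orange lines in the 300 nt after the stop codon.

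Which genes held more sites of 1 nuclease than of the other was tested with limma on the log2 number of PPSs per 10000 PPSs of the call set, with the replicate as a block and Benjamini-Hochberg adjustment over 2386 protein-coding and lncRNA genes whose PPS counts summed to at least 20 over the 4 call sets. A PPS with calls of several call sets counts once in each, so a gene can pass with fewer sites, such as the 12 of Eno1. At an adjusted p under 0.05, 59 genes (2.47% of those tested) were higher with ssRNase and 43 (1.80%) higher with dsRNase. Without the replicate block no gene passed, with 231 and 222 genes at an unadjusted p under 0.05 against 236 and 211 in the paired fit, so the calls depend on having a block term. Same-numbered call sets deviated from their group means with a correlation of −0.11 over genes, and pairing ssRNase replicate 1 with dsRNase replicate 2 and the reverse gave 142 and 106 calls. Whether the replicate numbers are crossed in 1 nuclease was not tested, and every difference within a replicate given here takes the numbers as labelled. With 1 call set left out, no blocked fit has residual degrees of freedom, so those fits also dropped the block and took the spread of the lone call set from the pair of the other nuclease. They gave 0 calls without either ssRNase call set, with 54 and 92 or 63 and 84 genes at an unadjusted p under 0.05 in limma, 643 and 401 calls without dsRNase replicate 1, and 252 and 160 without dsRNase replicate 2. All 43 dsRNase genes and 56 of the 59 ssRNase genes went the same way in both replicates, the exceptions being 4933407K13Rik, Dlg1 and Npcd. Over all genes tested, 895 were higher with ssRNase in both replicates and 659 higher with dsRNase in both.

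The 2 groups of genes differed in length and in where their PPSs lay. The test did not use gene length. The share of PPSs on exons comes from the same PPSs that were counted, and ssRNase PPSs touched introns more often throughout. That share is therefore a description of the called genes and not separate from the calls. Genes higher with ssRNase had a median length of 133.0 kb and a median of 12.7% of their PPSs on exons. Genes higher with dsRNase had a median length of 27.6 kb and 81.3% of their PPSs on exons, against 47.3 kb and 50% over all genes tested. Median mRNA length was close in all 3, at 4.97, 4.43 and 4.39 kb. The part of the class difference in the gene calls was not tested. Counting exonic PPSs only, 35 and 34 of 1132 genes were called, and counting intronic PPSs only, 1 and 0 of 1006.

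**Figure D5:**
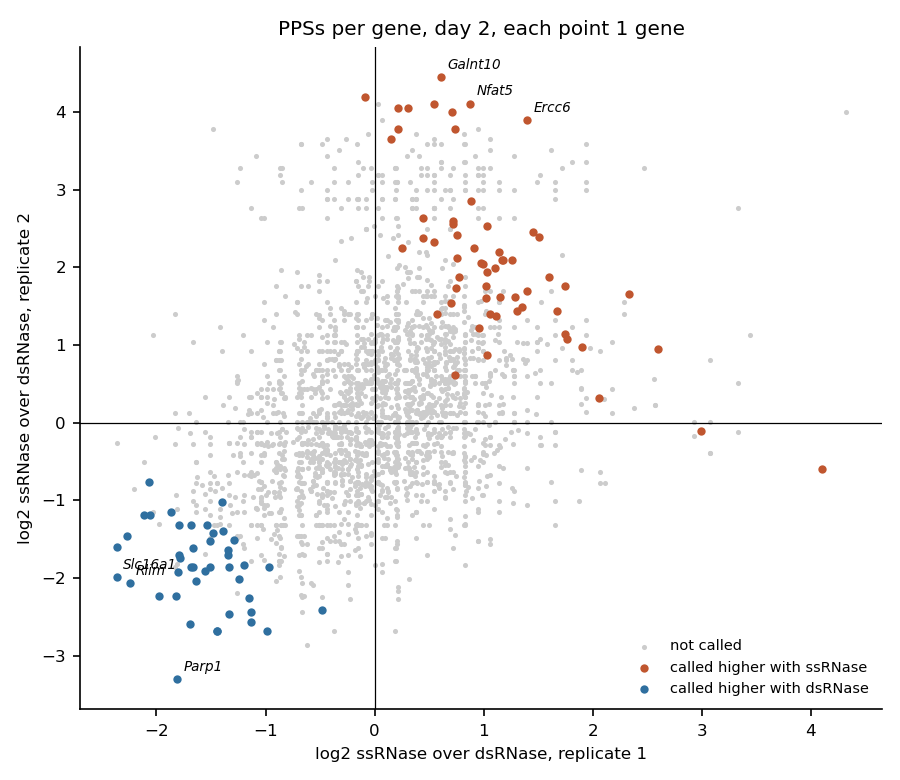
Difference in PPSs per gene, as log2 of ssRNase over dsRNase, within replicate 1 (horizontal axis) and within replicate 2 (vertical axis), for the 2386 genes tested, each point 1 gene. Orange and blue mark the 59 and 43 genes called higher with ssRNase and with dsRNase, and the 3 largest differences of each direction are named. The 43 blue points all lie in the lower left, whereas 3 orange points have a negative value on 1 axis, and the band of points above 3 on the vertical axis holds genes with no PPS in dsRNase replicate 2.

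In the 12 genes with the largest excess of dsRNase sites, most sites lay on exons, from 66.7% of the PPSs of Ywhab to 100% of those of Eno1 and Lin7c. Parp1, a poly(ADP-ribose) polymerase of DNA repair (1:180568924-180601254), had 10 and 9 PPSs with dsRNase and 4 and 3 with ssRNase. Its dsRNase PPSs were exonic in 9 of 10 and 9 of 9 cases. The log2 difference was −2.55 ± 0.51 (SE; adjusted p = 0.000434, limma), with −1.81 within replicate 1 and −3.30 within replicate 2. The SE and p of each gene rest on a variance that limma moderates over all genes tested. They are therefore not the spread of that gene's own 2 pairs. Rlim, an E3 ubiquitin ligase on the X chromosome (X:103957163-103981284), had 11 and 7 dsRNase PPSs, all exonic, against 3 and 7 with ssRNase, which per PPS of the call set is lower with ssRNase in both replicates (log2 difference −2.16 ± 0.49, adjusted p = 0.00271, limma). Slc16a1, the monocarboxylate transporter of lactate and pyruvate, had 12 and 5 dsRNase PPSs against 3 and 5. Its log2 differences within the replicates were close, at −2.36 and −1.99, with an SE of 0.53. Msh6, a DNA mismatch recognition protein, had 13 and 9 against 6 and 6. Mcm6, a subunit of the replicative helicase, had 9 and 6 against 3 and 5. The glycolytic enzyme gene Eno1 and the 14-3-3 gene Ywhab each had 6 and 7 against 3 and 4. Psap, which encodes the precursor of the saposins, Larp4, an RNA-binding protein that stabilises mRNAs, Lin7c, the chaperonin subunit gene Tcp1 and Ppp1r15b, a regulator of eIF2 dephosphorylation, completed the 12, with log2 differences from −2.03 to −1.86.

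The highest-scoring dsRNase site called in both replicates and lacking ssRNase calls is shown for each of the first 4 of these genes, which were chosen after their values were seen. Only sites of 41 to 120 nt wholly in CDS or within introns were eligible, and sites touching a UTR were passed over. In genes with mostly exonic sites this choice favours CDS. All 4 lay in CDS: Parp1 at chr1:180589469-180589546 (plus strand), Slc16a1 at chr3:104653267-104653325 (plus strand), Rlim at chrX:103963941-103964034 (minus strand) and Msh6 at chr17:87990557-87990630 (plus strand). Their A content was 33.3%, 20.3%, 38.3% and 36.5%, and none held more than 1 run of G:
Parp1: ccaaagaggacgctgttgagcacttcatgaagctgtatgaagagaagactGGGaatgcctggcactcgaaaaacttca
Slc16a1: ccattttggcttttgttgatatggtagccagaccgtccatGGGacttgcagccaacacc
Rlim: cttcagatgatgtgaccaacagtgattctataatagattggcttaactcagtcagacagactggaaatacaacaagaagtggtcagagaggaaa
Msh6: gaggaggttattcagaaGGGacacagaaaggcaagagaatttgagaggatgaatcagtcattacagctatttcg

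The genes with the largest excess of ssRNase sites included nuclear regulators. Most of their sites were intronic, except in Ercc6, Nfat5 and Cdca2, where 52.8%, 65.1% and 50% were exonic. Ercc6, a factor of transcription-coupled repair (14:32513521-32580990), had 20 and 24 PPSs with ssRNase and 4 and 0 with dsRNase, of which 11 and 11 of the ssRNase PPSs lay in introns. The log2 difference was 2.65 ± 0.68 (SE; adjusted p = 0.00941, limma), with 1.40 within replicate 1 and 3.90 within replicate 2. Galnt10, an enzyme that starts O-linked glycosylation (11:57645442-57787514), had 24 and 36 ssRNase PPSs, 23 and 32 of them intronic, against 9 and 0. Its log2 differences within the replicates lay far apart, at 0.61 and 4.45, although its moderated SE was 0.49. Nfat5, the transcription factor of the osmotic stress response (8:107293470-107379517), had 26 and 28 against 8 and 0, with 18 and 17 of the ssRNase PPSs on exons. It was also called on exonic PPSs alone (log2 difference 2.34, adjusted p = 0.00128, limma). Without dsRNase replicate 2, where both Nfat5 and Galnt10 had 0 PPSs, their log2 differences were 0.69 and 0.65 and no longer passed (adjusted p = 0.0801 and 0.0922, limma). The gene Btbd9 had 70 and 86 against 14 and 3, but 78.3% of its PPSs lie in another annotated gene as well, so they cannot be assigned to it alone. Cnot4, the ubiquitin ligase linked to the CCR4-NOT complex, had 30 and 35 against 6 and 1, and the forkhead factor gene Foxn3 had 23 and 47 against 7 and 1.

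The remaining members of the 12 were Cdca2, a mitotic phosphatase adaptor, Platr25, Atxn1, the Mediator subunit gene Med14, Rsbn1l and Tbl1xr1, a subunit of nuclear corepressor complexes. All 6 had 0 PPSs in dsRNase replicate 2, from 13 to 20 and from 20 to 28 PPSs with ssRNase, and 5 to 10 in dsRNase replicate 1. Of the 59 genes, 11 had no PPS in dsRNase replicate 2, and 180 of the 2386 genes tested had none. Their fitted differences depend on the prior count of 1 PPS and on dsRNase replicate 2 being the smallest call set: within replicate 1 the log2 difference of Tbl1xr1 was 0.15 and that of Med14 0.21. Without dsRNase replicate 2 the fitted difference of Tbl1xr1 was −0.06.

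For comparison, the strongest site with calls in both ssRNase replicates and no dsRNase call is shown for 4 of these genes, again chosen after their values were seen. The same limits of length and class were used as for the dsRNase sites. The sites of Ercc6 (chr14:32547050-32547131, plus strand), Galnt10 (chr11:57658609-57658691, plus strand) and Cdca2 (chr14:67693758-67693842, minus strand) were intronic, and that of Nfat5 (chr8:107339042-107339141, plus strand) lay in CDS that is intronic in another transcript:
Ercc6: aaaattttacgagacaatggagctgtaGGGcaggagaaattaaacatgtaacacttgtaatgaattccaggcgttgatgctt
Galnt10: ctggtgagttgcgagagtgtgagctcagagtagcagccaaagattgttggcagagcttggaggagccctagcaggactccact
Nfat5: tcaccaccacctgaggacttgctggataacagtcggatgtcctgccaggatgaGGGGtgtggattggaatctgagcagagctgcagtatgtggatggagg
Cdca2: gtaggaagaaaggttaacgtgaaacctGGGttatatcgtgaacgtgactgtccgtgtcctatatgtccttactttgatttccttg

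SR proteins and hnRNPs and translation factors held 2 genes each that were called higher with dsRNase and 0 called higher with ssRNase, by limma. These lists are read beside the background shares above, over genes that passed the same filter, and each list's median is set beside 0.15 on the log2 scale over all genes. Of 26 SR proteins and hnRNPs, which guide splicing, 15 were higher with dsRNase in both replicates and 2 with ssRNase, with a median log2 difference of −0.48. The 2 called were Srsf1, with 13 and 7 dsRNase PPSs against 7 and 11 with ssRNase (log2 difference −1.52, adjusted p = 0.0272, limma), and Hnrnph2, with 11 and 6 against 5 and 7, all exonic. Hnrnpm and Hnrnpu, the members with the most PPSs, were at 0.22 and −0.66 and were not called. Of 16 translation factors, 8 were higher with dsRNase in both replicates and 2 with ssRNase (median −0.58), and Eif5, which triggers GTP hydrolysis at the start codon, was called with 6 and 10 dsRNase PPSs against 4 and 7. Eif2s2, a subunit of eIF2, was called with 9 and 5 against 4 and 7. Eif4g3 was at 0.97, with 40 and 68 intronic ssRNase PPSs, and Eif4a1 at −1.01, and neither was called.

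Of 14 genes of cytosolic ribosomal proteins, 9 were higher with dsRNase in both replicates and 1 with ssRNase, with a median of −0.75, and none was called. Rps24 had 12 and 13 ssRNase and 6 and 4 dsRNase PPSs, all exonic, with a log2 difference of −0.17. Rpl13a had 11 and 9 against 8 and 6, with a log2 difference of −0.92. These differences are per PPS of the call set, and the ssRNase call sets are the larger, so raw counts can point the other way. Of 13 RNA helicases, 7 were higher with dsRNase in both replicates and 3 with ssRNase, with a median of −0.51 and none called. Ddx5 and Ddx17, coregulators of splicing and transcription, were at −0.91 and −0.52. Among 5 proteasome subunits the median was 0.13, with Psmb1 at 0.13 and Psmd14 at −0.37, and none was called.

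Histone genes moved both ways. Only 3 had enough PPSs, and 2 of them were called in opposite directions. H3f3a, which encodes the replication-independent histone H3.3, had 11 and 5 PPSs with dsRNase, 9 and 5 of them exonic, against 5 and 9 with ssRNase, 0 and 1 of them exonic (log2 difference −1.50, adjusted p = 0.0435, limma). H2afy, which encodes macroH2A1, had 30 and 41 with ssRNase, 25 and 36 of them intronic, against 10 and 2 with dsRNase (log2 difference 1.32, adjusted p = 0.0472, limma). The exon and intron counts of the 2 genes were thus opposite.

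Genes of the erythroid programme were mostly not called. None of 10 erythroid transcription factors was called, with 3 higher with ssRNase in both replicates and 2 with dsRNase and a median of −0.02. Zfpm1, the GATA1 cofactor FOG1, had 141 and 152 ssRNase PPSs and 37 and 38 dsRNase PPSs. Its log2 difference was 0.42, with 1.15 within replicate 1 and −0.31 within replicate 2. Bcl11a, a repressor of embryonic globins, had 59 and 91 against 24 and 10 (log2 difference 0.68). In Zfpm1, 130 and 146 of the ssRNase PPSs and 30 and 30 of the dsRNase PPSs were intronic. Gata1 had 6 and 12 against 8 and 3, which per PPS of the call set is lower with ssRNase in both replicates (log2 difference −0.66). Of 10 genes of the red cell membrane and skeleton, 4 were higher with ssRNase in both replicates and 1 with dsRNase, the median was 0.35 and none was called. Sptb, the beta chain of spectrin, had 112 and 127 against 36 and 28 (log2 difference 0.36, with −0.13 within replicate 2). Ank1, the ankyrin that anchors it, had 95 and 121 against 51 and 25 (log2 difference 0.04).

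Of 6 enzymes of heme synthesis, none was called (median −0.32). Fech, which inserts iron into protoporphyrin, had 24 and 37 PPSs with ssRNase and 14 and 6 with dsRNase (log2 difference 0.15). Alad had 16 and 16 against 6 and 6 (log2 difference −0.12). Globin genes held too few PPSs for the test: Hba-a1 had 5 and 5 with ssRNase and 3 and 4 with dsRNase, and Hba-a2, whose sequence is close to that of Hba-a1, so that reads can be split between them, had 4 and 3 against 3 and 2. Messages with iron responsive elements, the hairpins bound by iron regulatory proteins, include Tfrc and Cdc42bpa, and neither was called. The transferrin receptor gene Tfrc had 21 and 30 ssRNase and 11 and 12 dsRNase PPSs (−0.40), and Cdc42bpa 21 and 23 against 15 and 5 (−0.19).

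Of 8 cell cycle genes, Mcm6 was called higher with dsRNase and 4 were higher with dsRNase in both replicates against 2 with ssRNase (median −0.25). Cdk6 had 27 and 36 ssRNase PPSs against 12 and 4 (log2 difference 0.59), and Ccnd2 15 and 23 against 10 and 10 (log2 difference −0.62). Of 7 noncoding nuclear and snoRNA host RNAs none was called (median −0.47). The imprinted antisense RNA gene Kcnq1ot1 had 102 and 122 ssRNase and 48 and 21 dsRNase PPSs (0.27), and Neat1, the scaffold RNA of paraspeckles, 45 and 55 against 15 and 10 (0.46). Among 3 selenoproteins none was called (median 0.50), with Selenoi at −0.19 and Txnrd1 at 0.50.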

How the data were processed

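PIP-seq libraries of MEL cells at day 2 were analysed from the deposited list of PPSs, and the lists of day 0 and day 4 were used for comparison only. Per the labels and methods, the authors trimmed reads with cutadapt 1.2.1, aligned them to mm10 with TopHat2 2.0.10 and called PPSs with a modified CSAR, a Poisson test of footprint against structure-only coverage, and merged the calls of a day into 1 list. The score deposited by the authors for a merged PPS is the sum of the scores of its calls; the depth of each library is unknown from the lists. The replicates are called biological in the methods.

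PPSs were annotated on their own strand with GENCODE M21 on the same build (21 chromosomes). A PPS counted in a class when 1 nt or more overlapped it. Analyses used Python 3.11.15, pandas 2.3.3, samtools 1.23.1, RNAfold 2.7.2 and limma 3.58.1 in R 4.3.3. Genes whose PPS counts summed to at least 20 over the 4 call sets entered limma (trend on) with a prior count of 1 PPS. The series' design text says each replicate was divided between the libraries, which pairs the call sets by number, so replicate was a block. The deviations of same-numbered call sets from their group means correlated at −0.11 over 2386 genes, and the differences of the 2 pairs at 0.35. Named genes were the 12 largest log2 differences in each direction among called genes of the same direction in both replicates and with a symbol other than a Gm or Rik name, and the 2 members of each list with the most PPSs, and the highest-scoring PPS of each group; called list members are named too, except 1 that is not reported here. For printed CDS sequences, PPSs that are UTR in another transcript were passed over. Members, lists and tests were chosen with earlier results of these data known. Alternatives were all lengths, single-call PPSs, PPSs of 1 nuclease, single-call scores at or above their median per call set, other class rules, no block, a prior count of 3 PPSs, a filter of 4 PPSs, exonic or intronic PPSs, and each call set or replicate left out. The limma step was tested on simulated data.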

Additional observations from a re-analysis of the deposited data

Results flagged for a closer look

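Length differences between the nucleases changed direction between days, and none of these differences between days was tested. The median length with ssRNase minus that with dsRNase was −2 and −1 nt in the 2 replicates at day 2, against 2 and 3 nt at day 0, so the mean difference was lower by 4 nt at day 2 (−4). Against day 4, where it was 5 and 5 nt, the change was −6.5 nt. The share of PPSs over 100 nt differed by −0.04 and −5.66 percentage points at day 2 and by 0.02 and 0.89 at day 0, a change of −3.31 points, and by 3.57 and 3.09 at day 4, a change of −6.18 points. The first of the day 2 values and the first of day 0 are close to 0.

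Mean T content with ssRNase minus that with dsRNase was 0.13 and 2.37 percentage points at day 2 and −1.33 and −0.40 at day 4, a change of 2.12 points that was not tested.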

How the results depend on the processing

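The CDS, intron and 3′ UTR differences kept their direction under every alternative run. The CDS difference was −28.2 points with PPSs of 1 nuclease only and −30.7 with single-call scores at or above their median. The intron difference was 33.0 with single-call PPSs, 35.6 with PPSs of 1 nuclease, 37.1 with scores at or above the median and 32.2 without the replicate block, that is with replicates pooled over PPSs of 1 nuclease. The 3′ UTR difference was −9.58 with all lengths, −14.1 with single-call PPSs, −16.4 with PPSs of 1 nuclease, −15.8 with scores at or above the median, −15.1 without the replicate block, −7.82 with 1 class per PPS and −8.63 where at least 50% of the PPS had to lie in the class. The median length difference turned from −1.5 nt to 1 with all lengths, 2.5 with single-call PPSs, 5 with PPSs of 1 nuclease, 2 with scores at or above the median and 4 without the block. Differences near 0 also turned: 5′ UTR to 0.0562 with 1 class per PPS (−2.35 to 0.0599 leaving out a replicate), C content (−1.42 to 0.0310 leaving out a replicate), and lncRNA exons, −0.0040 in the paired comparison, to 0.0794 with all lengths, 0.24 with single-call PPSs, 0.47 with PPSs of 1 nuclease, 0.30 with scores at or above the median, 0.36 without the block, 0.0657 with 1 class per PPS and 0.0051 under that 50% rule (−0.20 to 0.19 leaving out a replicate). The causes were not tested.

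Calls of genes (59 higher with ssRNase, 43 with dsRNase) were 0 and 0 without the replicate block, 39 and 42 with a filter of 4 PPSs, 35 and 34 on exonic PPSs, 1 and 0 on intronic PPSs, 13 and 2 on single-call PPSs, 102 and 100 with all lengths, and 27 and 20 with PPSs of 1 nuclease, and ranged from 0 to 643 and from 0 to 401 when 1 call set was left out. The fits with a call set left out also dropped the block. Of the 24 genes named for their size, 24 lost the call without the block and without either ssRNase call set, and without dsRNase replicate 2 9 lost it and 1, Tbl1xr1, turned (−0.0566 to 3.98 when 1 call set was left out). The call was lost by 7 of the 14 tested on exonic PPSs, 11 of 12 on intronic PPSs, 10 of 11 on single-call PPSs and 12 of 16 with PPSs of 1 nuclease. Crossing the replicate numbers, an alternative chosen after seeing the data, gave 142 and 106 calls, with all 24 named genes among them; whether the numbers are crossed was not tested. With 2 pairs and unknown depth, small differences in these lists were not resolvable.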
